A study of Rattus norvegicus with 44 samples.

Results

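The nuclear respiratory chain and ATP synthase genes were taken as the genes whose symbol begins with Ndufa, Ndufb, Ndufc, Ndufs, Ndufv, Uqcr, Cox4 to Cox8 or Atp5, together with Sdha, Sdhb, Sdhc and Sdhd. The rule matched 94 gene identifiers, and 91 of them had a mean normalized value of at least 5 over all rats, out of 15598 genes tested. The 91 comprised 36 subunits of complex I, 8 complex I assembly factors, 4 subunits of complex II, 9 of complex III, 17 of complex IV and 17 of complex V (the ATP synthase). Cox8b, Cox6a2 and a further Ndufa10l1 identifier fell under the limit, at means of 4.38, 4.63 and 1.63, and the members nearest above it were Cox6b2 at 13.3 and Cox7a1 at 16.3. The rule used gene names and the mean over all rats, not a measured difference between groups. It was chosen with earlier results of these data known.

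Gene expression was measured by RNA sequencing of the dentate gyrus, the hippocampal field of granule neurons, in 44 male F344 rats with 1 library each. Young rats (YNG, n = 10) were 6 months old, and the study's methods describe no vehicle or drug for them. Older rats received vehicle (AV, n = 12), ABT-263 at 12 mg/kg (AA, n = 11), or dasatinib at 1.2 mg/kg with quercetin at 12 mg/kg (ADQ, n = 11), and the study's methods describe cycles of 5 daily doses by gavage that began at 12 months and ended at 18 months. ABT-263 inhibits anti-apoptotic BCL-2 family proteins, dasatinib inhibits tyrosine kinases and quercetin is a flavonoid. Both regimens are used as senolytics, agents that kill senescent cells. The deposited labels give the age as 12 months for every older rat and no treatment, so treatment was read from the deposited attribute table by rat name.

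The respiratory chain passes electrons from NADH and succinate to oxygen and pumps protons across the inner mitochondrial membrane. Complex I oxidizes NADH, complex II oxidizes succinate, complex III reduces cytochrome c and complex IV reduces oxygen. Complex V uses the proton gradient to make ATP, on which ion pumping and synaptic transmission depend. Most subunits are encoded in the nucleus, as are all 91 genes here, and a small set is encoded in the mitochondrial genome.

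The rats were split by number into 2 series. Series a took numbers up to 4011 and V1 to V6, and series b took numbers from 4031 and V9 to V12. In series a there were 6 YNG, 6 AV, 5 AA and 5 ADQ rats. The counts for b in the same order were 4, 6, 6 and 6. No label gives this split, and the pairing of the V numbers with the others was a choice. The gap from 4011 to 4031 is not the widest, and that from 4110 to 4566 is wider. The labels name no batch. In series b the AV rats carried numbers 4566 to 4572, apart from the AA and ADQ rats at 4031 to 4110, so group and number range could not be told apart there. The sum of normalized values (normalized total) ran from 14297964 to 20579982 per rat, and 9 rats were above 17000000 (5 of 10 YNG, 3 of 12 AV, 0 of 11 AA and 1 of 11 ADQ). The granule cell markers Prox1 and C1ql2 were measured in every group, at AV medians of 2547 and 5223. CA1 markers were present as well, and their summed level ran from 1471 to 33891 across groups.

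Each rat was first summarized by the median, over the 91 genes, of the log2 deviation from each gene's mean over all rats. In YNG this median ran from -0.48 to 0.67 with a middle value of 0.37, in AV from -0.42 to 0.53 with a middle value of -0.07, in AA from -0.37 to 0.25 with a middle value of -0.09 and in ADQ from -0.32 to 0.12 with a middle value of -0.10. Of the 10 highest rats 6 were YNG, 3 were AV and 1 was AA, and the groups overlapped. The single lowest of the 44 rats was also young, V11 at -0.48.

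**Figure D1:**
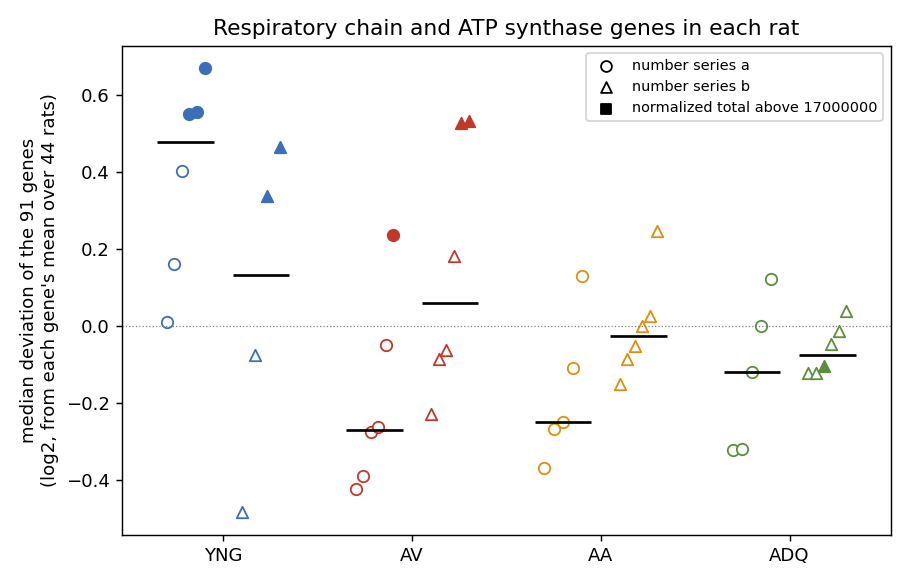
Median log2 deviation of the 91 genes from their means over 44 rats (vertical axis) for each rat, by group (horizontal axis). Circles are number series a and triangles series b, filled symbols have a normalized total above 17000000, and bars mark the median of each cell. YNG rats of series a lie at 0.01 to 0.67, while the other groups center below or near 0 and YNG rat V11 is lowest at -0.48.

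The first comparison asked how the genes differed between older vehicle rats and young rats. Of the 91 members 44 were lower in AV than in YNG at an unadjusted p below 0.05, the threshold the study used, and 2 were higher. Over all genes tested 10.7% were lower and 10.6% were higher by the same rule. The median difference was -0.28 on the log2(value + 1) scale, against -0.002 over all genes, and 87 of 91 estimates were below 0. After Benjamini-Hochberg adjustment over all genes none of the 91 passed in limma, and the smallest adjusted p was 0.068. With the number series as a covariate 5 passed as lower, where 1.49% of all genes did. Leaving out YNG rat V11, AV rat 4567, AV rat 4572 or YNG rat V10 gave 25, 21, 20 and 2, where 3.15% of all genes passed without V11. The share of all genes is not given for the other rats left out, so those counts cannot be set against it. In bulk tissue, fewer cells of a type and less RNA per cell cannot be told apart.

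These counts changed with the way the normalized total was handled. That total is a sum of normalized values and not a measure of depth. It was above 17000000 in 5 of 10 YNG rats, so it was partly tied to group. With the normalized total as a covariate 1 member was lower in AV, where 4.02% of all genes were lower, and without the 9 rats above 17000000 13 members were lower, where 4.99% of all genes were. Scaling to equal totals gave 23 lower members and moved all genes alike, with medians of -0.18 for the members and 0.10 for all genes. Leaving out YNG rat V2, YNG rat V1 or AV rat 4011 gave 27, 29 and 29. The 9 rats had a median deviation of 0.93 for 81 cytosolic ribosomal protein genes, against -0.22 in the other 35, and their shares of mitochondrially encoded respiratory transcripts ran from 11.3% to 19.97%, against 5.75% to 13.5%. What part the total, or these RNAs, had in the difference between groups was not tested further.

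**Figure D2:**
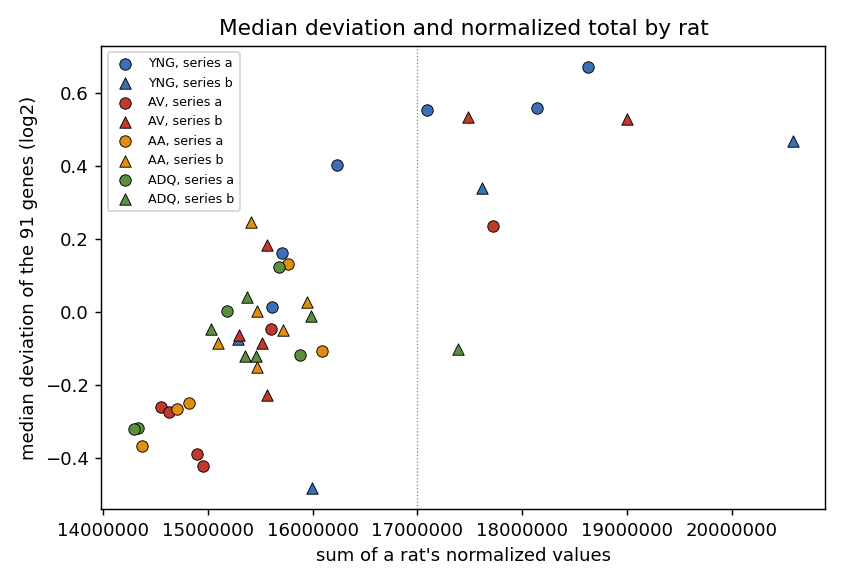
Median log2 deviation of the 91 genes (vertical axis) against the sum of normalized values (horizontal axis), 1 point per rat, colored by group, with circles for number series a and triangles for series b. The dotted line marks 17000000; the 9 rats to its right lie at -0.10 to 0.67 and hold 8 of the 10 highest medians.

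In complex I, 22 of 36 subunits were lower in AV and none was higher, with a median difference of -0.35. The accessory subunits of the membrane arm accounted for 14 of the 22 calls, out of 18 measured, and 4 of the 7 core catalytic subunits were lower. Ndufv1, which binds the flavin and receives electrons from NADH, ran from 2365 to 4557 in YNG (median 3518), from 1701 to 4878 in AV (median 2295), from 1851 to 3086 in AA (median 2509) and from 1927 to 3097 in ADQ (median 2579). The highest AV rat exceeded every YNG rat, while the AV median lay below the lowest YNG value. The difference of -0.50 ± 0.15 (SE) had an unadjusted p of 0.0022 and an adjusted p of 0.068 in limma.

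Ndufb10, a membrane arm subunit, had a median of 2783 in YNG (1399 to 3685) and 1615 in AV (1207 to 3685), a difference of -0.46 ± 0.16. Ndufs6, a zinc-binding subunit of the matrix arm, showed the largest estimate at -1.29 ± 0.46 but was a low-value gene, at 31 to 92 in YNG and 1 to 83 in AV. Of the core subunits that did not pass the test, Ndufs1, which carries iron-sulfur clusters, had medians of 1128 in YNG and 1157 in AV and a difference of -0.02 ± 0.10. The estimates for complex I ran from -1.29 (Ndufs6) to 0.11, and its members were not tested against each other.

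Among the 8 complex I assembly factors, which help build the complex and are not part of it, Ndufaf3 and Ndufaf5 were lower in AV. Ndufaf3 had a median of 752 in YNG (510 to 1021) and 581 in AV (376 to 917), a difference of -0.33 ± 0.12. Ndufaf5 had a median of 400 in YNG (246 to 484) and 293 in AV (179 to 491), a difference of -0.31 ± 0.13. Ndufaf1 and Ndufaf4 had estimates of -0.03 each, and Ndufaf2 was not called at -0.24 ± 0.18.

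In complex II only the iron-sulfur subunit Sdhb was lower in AV. Its values ran from 1023 to 2165 in YNG (median 1801), from 990 to 2134 in AV (median 1198), from 1182 to 1636 in AA (median 1305) and from 1082 to 1425 in ADQ (median 1266), and the AV and YNG ranges overlapped. The difference was -0.32 ± 0.11 with an unadjusted p of 0.0049. Sdha, the flavoprotein that binds succinate, had medians of 3802 and 3656 and a difference of -0.04 ± 0.07. For the membrane anchors the differences were -0.20 ± 0.10 (Sdhc) and -0.05 ± 0.10 (Sdhd).

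Complex III had 3 of 9 subunits lower in AV. Uqcrc1, a core protein, had a median of 4379 in YNG (2129 to 4985) and 2870 in AV (2439 to 5125), a difference of -0.31 ± 0.13. The other core protein, Uqcrc2, had medians of 2046 and 1966 and a difference of -0.06 ± 0.06. Uqcrb, a small subunit, is listed under 2 identifiers that may share reads: ENSRNOG00000032204 differed by -0.59 ± 0.22 and was called, and ENSRNOG00000024967 differed by -0.35 ± 0.21 and was not.

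In complex IV, 7 of 17 members were lower and 2 were higher. Cox5a, a general subunit, ran from 662 to 1666 in YNG (median 1096) and from 535 to 1316 in AV (median 806), a difference of -0.41 ± 0.14 with an unadjusted p of 0.0058. Cox6c had a median of 2872 in YNG (1013 to 3775) and 1647 in AV (1176 to 3587), a difference of -0.49 ± 0.19. Cox4i1, the general form of subunit 4, was lower by -0.30 ± 0.14. Cox6a1 and Cox8a were not called, at -0.09 ± 0.12 and 0.07 ± 0.14. Cox6b1 is listed under 2 identifiers that may share reads, of which ENSRNOG00000034161 was lower by -0.45 ± 0.18 and ENSRNOG00000024309 was not called at -0.08 ± 0.10.

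The isoforms of complex IV subunits that are used in particular tissues or conditions varied in direction. Cox4i2, the subunit 4 isoform known from lung and from low oxygen, ran from 12 to 62 in YNG (median 30), from 21 to 191 in AV (median 57), from 21 to 88 in AA (median 40) and from 17 to 56 in ADQ (median 37). Its AV values reached above every YNG value in part of the rats, and the difference was 0.65 ± 0.28 with an unadjusted p of 0.027 and an adjusted p of 0.18. Ndufa4l2, a hypoxia-inducible relative of the complex IV subunit Ndufa4, was 18 to 54 in YNG (median 31) and 22 to 82 in AV (median 38), a difference of 0.41 ± 0.20, while Ndufa4 itself differed by -0.09 ± 0.20. Cox6b2 was lower by -0.54 ± 0.22 at values of 6 to 27, and Cox7a1 was not called at -0.25 ± 0.26. With the normalized total as a covariate the estimates were 0.98 for Cox4i2 (adjusted p 0.037), 0.48 for Ndufa4l2 and -0.52 for Cox6b2, and these were the 3 members called. Neither Cox4i2 nor Ndufa4l2 was called without AV rat 3989 (0.47 and 0.39), without YNG rat V5 (0.50 and 0.34) or with only the 2 groups fitted. Within series b the Cox4i2 difference was 0.21, or -0.043 without V11, and that of Ndufa4l2 turned to -0.15, or -0.29 without V11.

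Cox4i2 and Ndufa4l2 are known from the mural cells of blood vessels, and markers of other cell types moved in the same comparison. All 4 endothelial markers measured were higher in AV, and their summed level ran from 886 to 3264 in YNG (median 1527) and from 1612 to 6933 in AV (median 2427). Of 6 oligodendrocyte markers 5 were higher, with a summed median of 69400 in YNG and 80170 in AV. Of 6 astrocyte markers 2 were higher, with summed medians of 46798 and 54043. Of 6 microglia markers 2 were higher, with summed medians of 4912 and 4677. Of 5 granule cell markers Calb1 was lower, and their summed median was 13435 in YNG and 11151 in AV, with overlapping ranges. The part of these markers in the differences of the 91 genes was not tested.

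In complex V, 9 of 17 members were lower and none was higher. Atp5pd, in the peripheral stalk, ran from 1046 to 3089 in YNG (median 2563), from 792 to 3238 in AV (median 1381), from 929 to 2342 in AA (median 1360) and from 1079 to 1798 in ADQ (median 1404). Every AA and ADQ value lay under the YNG median, and the AV difference was -0.59 ± 0.19 with an unadjusted p of 0.0028. All 3 genes for the c ring, Atp5mc1, Atp5mc2 and Atp5mc3, were lower, by -0.29 to -0.27, and so was the inhibitor Atp5if1, at -0.45 ± 0.18. Of the catalytic head, Atp5f1b was lower by -0.19 ± 0.09 and Atp5f1a was not called at -0.13 ± 0.08. Atp5mg and Atp5me, small subunits of the membrane part, differed by -0.39 ± 0.14 (called) and -0.38 ± 0.20 (not called).

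**Figure D3:**
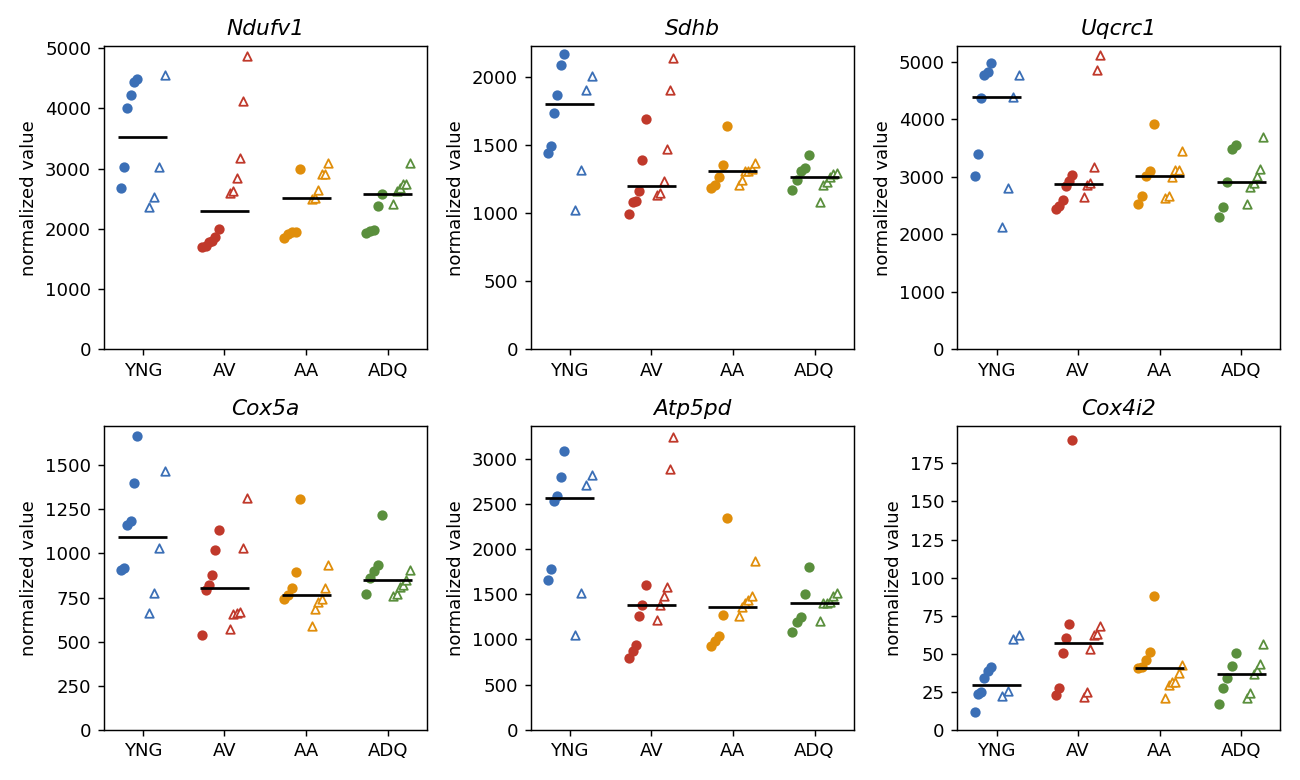
Normalized values of Ndufv1, Sdhb, Uqcrc1, Cox5a, Atp5pd and Cox4i2 (vertical axes, from 0) in each rat by group (horizontal axis), with filled circles for number series a, open triangles for series b and bars at group medians. The YNG medians of the first 5 genes lie above those of the older groups, with overlapping values, and Cox4i2 has its highest median, 57, in AV.

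The comparisons of the treated older groups with YNG also gave members lower than in YNG. In AA, 53 members were lower than in YNG and none was higher, where 14.1% of all genes were lower, and the median difference was -0.32. In ADQ, 54 were lower and none was higher, where 14.6% of all genes were lower, and the median difference was -0.34. After adjustment 4 members stayed lower in AA, where 2.31% of all genes did: Ndufb3, Ndufb10, Ndufa13 and Atp5pd. In ADQ 8 did, where 3.96% of all genes did: Sdhb, Sdhc, Ndufb10, Ndufb11, Ndufv1, Cox6c, Atp5pd and Atp5po. The adjusted counts rested on single rats. When each of the 44 rats was left out in turn, no AA call survived adjustment for 13 of them (YNG rats V1, V2, V3, V4, V9 and V12 and AA rats 3983, 3984, 3988, 3996, 4035, 4077 and 4107), and no ADQ call did without V1, V2, V4, V9 or V12. Without V11 51 stayed lower in AA and 51 in ADQ, where 8.73% and 9.77% of all genes did. With the number series as a covariate the adjusted counts were 20 and 27, and with only the 2 groups fitted 2 and 29. The share of all genes is not given for these fits, so the counts cannot be set against it. These comparisons share the YNG rats with the first, so the counts are not independent of it. With the normalized total as a covariate no member was lower in AA or ADQ, and 2 and 0 were higher. Without the rats above 17000000 1 and 0 members were lower, and 2 and 1 were higher. For these fits too the share of all genes is not given.

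By complex, the lower members in AA were 27 of 36 for complex I, 3 of 8 assembly factors, 2 of 4 for complex II, 5 of 9 for complex III, 6 of 17 for complex IV and 10 of 17 for complex V. In ADQ they were 29, 3, 2, 4, 7 and 9. Ndufb3, a membrane arm subunit, had the smallest p in AA, with a median of 1384 in YNG (690 to 1764) and 831 in AA (455 to 1238), a difference of -0.69 ± 0.20 and an adjusted p of 0.042. Sdhb had the smallest p in ADQ, with a difference of -0.41 ± 0.11 and an adjusted p of 0.027, and Sdhc followed at -0.36 ± 0.10 with an adjusted p of 0.032. Atp5pd differed by -0.67 ± 0.19 in AA and by -0.64 ± 0.19 in ADQ, with adjusted p of 0.045 and 0.035. Atp5f1c, the central stalk subunit, was lower by -0.36 ± 0.11 in AA, and Atp5po, in the peripheral stalk, by -0.51 ± 0.17 in ADQ. Ndufaf8, an assembly factor, was lower by -0.45 ± 0.17 in both.

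**Figure D4:**
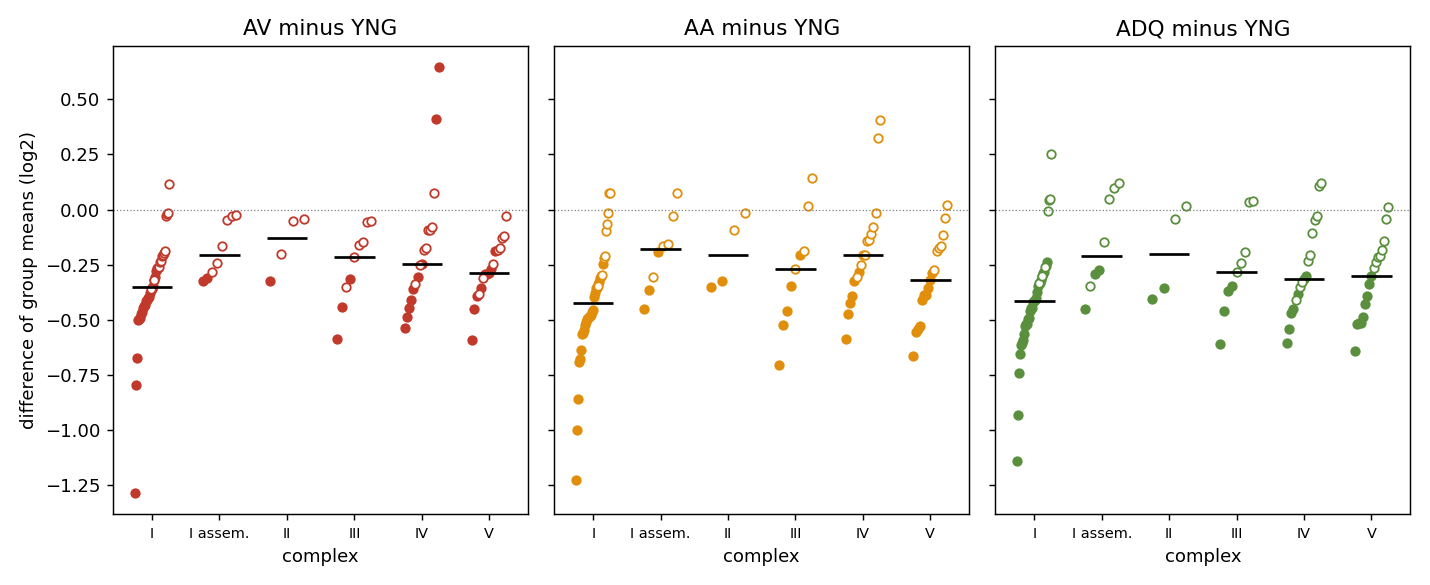
Log2 difference of each member from YNG (vertical axis) by complex (horizontal axis) in AV, AA and ADQ, with filled points at an unadjusted p below 0.05 and bars at medians. The complex I medians are -0.35, -0.43 and -0.41, and the 2 filled points above 0 are Cox4i2 and Ndufa4l2 in AV.

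The treated groups were then compared with AV and with each other. None of the 91 members was called in AA against AV, in ADQ against AV or in AA against ADQ at an unadjusted p below 0.05 in limma, so none passed after adjustment, where 4.51%, 9.32% and 4.53% of all genes were called in either direction. The median differences were -0.05, -0.05 and 0.002, and the single estimates ran from -0.32 to 0.40, from -0.54 to 0.17 and from -0.26 to 0.29. In AA against AV the smallest p belonged to Atp5f1a (0.15 ± 0.08), Cox6b2 (0.40 ± 0.22) and Ndufs4 (-0.16 ± 0.11). In ADQ against AV it belonged to Cox4i2, at -0.54 ± 0.27 with an unadjusted p of 0.056, Ndufaf6 (0.17 ± 0.11) and Sdhc (-0.16 ± 0.10). In AA against ADQ the first 3 were Ndufaf1 (-0.26 ± 0.14), Sdha (-0.11 ± 0.07) and Ndufa4l2 (0.29 ± 0.20). These counts do not show that the treated groups equal AV. Within series b 8 members were lower in ADQ than in AV, where 4.75% of all genes were, and without the rats above 17000000 5 were higher, where 3.33% of all genes were.

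The difference between AV and YNG was unlike in the number series. Earlier results of these data had shown this, and the tests by series were chosen for that reason. Their p-values are therefore not independent support. Within series a 71 members were lower and 2 higher, where 18.3% of all genes were lower and 15.2% higher, with a median of -0.63. Within series b no member was lower, where 2.54% of all genes were, 5 were higher, where 3.77% of all genes were, and the median was 0.11. Every AV value lay below every YNG value for 15 members in series a, where 3.25% of all genes showed this, and for none over both series, where 0.00641% did. In the test of the difference itself, 65 members were more negative in series a than in series b and 1 was less so, where 13.4% of all genes were more negative, and 26 passed after adjustment, where 3.18% of all genes did. With the normalized total as a covariate 65 members were more negative, 38 of them after adjustment. Without the rats above 17000000, 65 were more negative, 16 of them after adjustment. The share of all genes is not given for these fits. The 26 adjusted calls fell to 4 without V11 (0.359% of all genes), 14 without V10, 15 without AV rat 4572, 16 without V1 and 17 without V3. They rose to 47 without V9, 46 without AV rat 3989 and 44 without V5. Among these rats the share of all genes is given only for V11.

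Other measures differed between the series too. The share of the normalized total on 1 gene, AABR07000398.1, was 0.422% to 1.60% in the rats of series a and 1.71% to 11.1% in those of series b, with no overlap, and the share of mitochondrially encoded respiratory transcripts had medians of 9.94% and 7.90%. In the same test of the difference, 3 of 4 endothelial markers were more positive in series a, all 3 after adjustment, and the median of the 4 was 1.34. Their summed level in series a ran from 886 to 2055 in YNG (median 1227) and from 1612 to 6933 in AV (median 2933), and in series b from 1625 to 3264 in YNG (median 2508) and from 2101 to 4311 in AV (median 2397). Of 6 astrocyte markers 3 were more positive in series a, with none after adjustment. The share of all genes more positive in series a is not given, so these marker counts cannot be set against it. Of the 81 cytosolic ribosomal protein genes 44 were more negative, where 13.4% of all genes were. After adjustment 13 of them were, where 3.18% of all genes were. The part of these in the difference between the series was not tested.

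By complex, the lower members in series a were 32 of 36 for complex I, 4 of 8 assembly factors, 3 of 4 for complex II, 7 of 9 for complex III, 9 of 17 for complex IV and 16 of 17 for complex V. The 5 members higher in AV in series b were Ndufa4, Ndufa7, Ndufc1, Cox7a2l2 and Uqcr10, at 0.39 to 0.51, and their smallest adjusted p was 0.63. Ndufs7, a core subunit with an iron-sulfur cluster near the quinone site, had the smallest p of the interaction. In series a it ran from 1307 to 2378 in YNG (median 2173) and from 808 to 1288 in AV (median 1073), with no overlap. In series b the YNG rats had 2316, 1391, 1207 and 1753, and AV ran from 1718 to 2936 (median 1875). The difference between the series was -1.26 ± 0.23 with an adjusted p of 0.0021.

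Ndufv1 ran in series a from 2675 to 4487 in YNG and from 1701 to 2003 in AV, again with no overlap. In series b its YNG values were 4557, 2531, 2365 and 3031, and AV ran from 2588 to 4878. The differences were -1.05 in series a and 0.12 in series b, and their contrast was -1.17 ± 0.22 with an adjusted p of 0.0029. Ndufa3, a small membrane arm subunit, ran in series a from 398 to 653 in YNG and from 63 to 265 in AV. In series b its YNG values were 582, 273, 207 and 524, and AV ran from 336 to 619, for a contrast of -2.08 ± 0.41.

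Series b held 4 YNG rats, and V11, the lowest of all rats, was among them. Without V11 the count over both series rose to 64 members lower in AV, where 14.5% of all genes were. Within series b without V11 no member was lower or higher, where 2.13% and 3.73% of all genes were, so none of the 5 higher calls remained, and the median was -0.08. For AA and ADQ, 66 and 60 members were lower than YNG in series a, where 16.1% and 15.1% of all genes were, and none was in series b, where 5.17% and 2.57% of all genes were. In series b 5 members were higher in AA and 1 in ADQ, where 7.19% and 4.33% of all genes were. Without V11 the lower members in series b numbered 19 in AA and 27 in ADQ, where 7.58% and 5.83% of all genes were lower. The test of the difference between the series gave, without V11, 45 members more negative and 1 less so, where 9.39% of all genes were more negative.

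**Figure D5:**
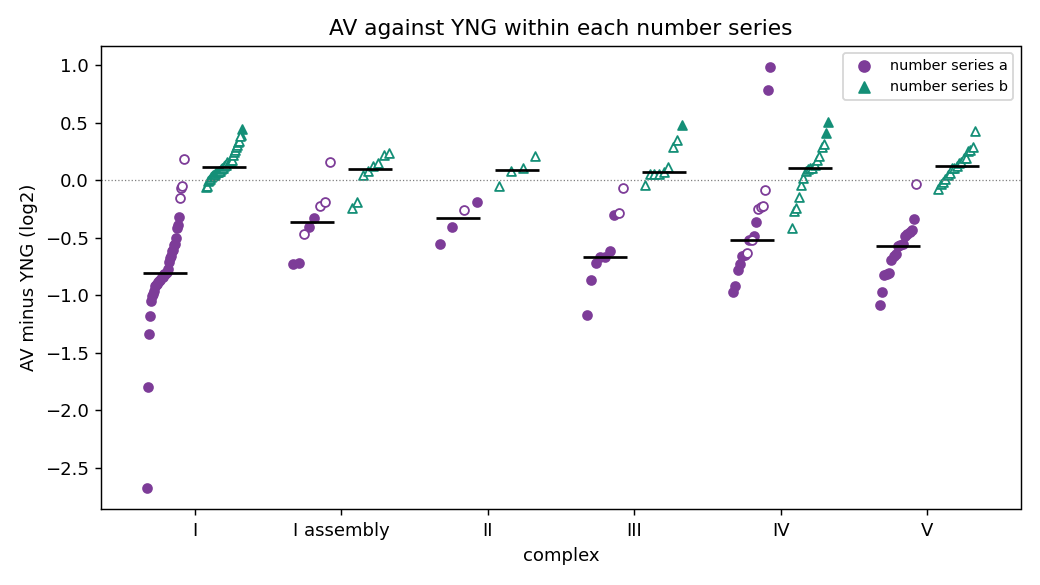
Log2 difference of AV from YNG (vertical axis) for each member by complex (horizontal axis), with circles for number series a and triangles for series b, filled at an unadjusted p below 0.05, and bars at medians. The complex I median is -0.81 in series a and 0.11 in series b.

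Genes outside the rule but of the same pathway were read from lists, to be set against the 10.7%, 14.1% and 14.6% of all genes that were lower in AV, AA and ADQ. Of the 13 mitochondrially encoded respiratory genes 3 were lower in AV than in YNG, 11 in AA and 9 in ADQ, and none was called in the interaction. Mt-nd3, a complex I subunit, differed by -0.67 ± 0.27 in AV and -1.02 ± 0.28 in ADQ, and Mt-co2, a complex IV subunit, by -0.48 ± 0.24 in AV. Of 39 other assembly factors 7 were lower in AV, 7 in AA and 9 in ADQ, where 1 was higher. Cox17, a copper chaperone for complex IV, had a median of 717 in YNG (353 to 935) and 448 in AV (215 to 933), a difference of -0.70 ± 0.21, and Ecsit, a complex I assembly factor, differed by -0.38 ± 0.14.

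Of 11 genes for cytochrome c, its partners and carriers 5 were lower in AV, 7 in AA and 6 in ADQ, where 2 were higher, among the lower ones Cyc1, the heme subunit of complex III (-0.34 ± 0.12 in AV), and the ADP/ATP carrier Slc25a5 (-0.28 ± 0.10). Of 15 genes of the tricarboxylic acid cycle, which supplies NADH and succinate, 4 were lower in AV, 8 in AA and 3 in ADQ, including Idh3a (-0.21 ± 0.08 in AV). The 15 regulators of mitochondrial biogenesis had median differences from YNG of -0.0044 (AV), 0.03 (AA) and 0.09 (ADQ). Each comparison had 1 of them lower, and 0, 3 and 2 were higher. The 1 lower in AV was Twnk, the mitochondrial DNA helicase, with a median of 1233 in YNG and 703 in AV and a difference of -0.55 ± 0.18, and Pprc1, a coactivator, was not called at 0.10 ± 0.07. The 81 cytosolic ribosomal protein genes had 33 lower in AV, 61 in AA and 63 in ADQ. Their median differences were -0.44, -0.59 and -0.61, against -0.28, -0.32 and -0.34 for the 91 members. After adjustment 0, 18 and 33 of the 81 were called, against 0, 4 and 8 members. By the same rule 2.31% of all genes were lower in AA and 3.96% in ADQ.

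Promoter sequence was compared because 44 of the 91 members were lower in AV in the fit of all rats, though none was within series b. RefSeq promoters on GRCr8 were found for 76 of 88 member symbols, and the 250 bases before the start were searched on both strands for CATGCGC (the core of the NRF1 site), CCGGAAG (the core of the ETS site bound by GABP) and AAGATGG (the core of the YY1 site). NRF1 and GABP are known activators of respiratory genes. CATGCGC was found in 13 member promoters (17.1%) and in 3.45% of 27457 promoters of the same length. CCGGAAG was found in 19 (25%) and in 7.74%, and AAGATGG in 4 (5.26%) and in 4.63%. Among members with a single identifier, 10 of 13 with CATGCGC and 28 of 61 without it were lower in AV, and 8 of 19 with CCGGAAG and 30 of 55 without it were. For AAGATGG the counts were 0 of 3 with it and 38 of 71 without it. Below are Sdhb and Uqcrc1, which were lower in all older groups, and Ndufs1 and Uqcrc2, which were called in none. All 4 were picked after their values were seen and do not stand for the other members. Ndufv1, Ndufb10 and Cox5a, which were also lower in AV, held none of the 3 motifs. Capitals mark any of the 3 motifs on either strand.
Sdhb promoter (GRCr8, chr5:158547684-158547933, plus strand): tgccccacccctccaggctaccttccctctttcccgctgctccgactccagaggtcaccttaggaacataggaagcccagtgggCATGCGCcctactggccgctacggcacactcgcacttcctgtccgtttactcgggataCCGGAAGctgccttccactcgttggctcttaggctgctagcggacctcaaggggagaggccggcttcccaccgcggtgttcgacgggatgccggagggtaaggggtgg
Uqcrc1 promoter (GRCr8, chr8:118467973-118468222, plus strand): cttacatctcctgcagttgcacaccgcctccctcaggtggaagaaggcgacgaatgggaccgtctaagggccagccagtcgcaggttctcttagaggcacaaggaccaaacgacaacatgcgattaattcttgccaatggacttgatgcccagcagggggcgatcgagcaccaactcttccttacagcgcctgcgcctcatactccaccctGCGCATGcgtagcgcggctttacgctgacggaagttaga
Ndufs1 promoter (GRCr8, chr9:72073606-72073855, minus strand): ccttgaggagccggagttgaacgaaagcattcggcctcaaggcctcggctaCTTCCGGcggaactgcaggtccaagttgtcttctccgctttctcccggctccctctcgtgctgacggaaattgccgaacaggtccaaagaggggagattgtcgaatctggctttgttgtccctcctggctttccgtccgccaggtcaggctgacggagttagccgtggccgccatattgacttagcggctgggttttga
Uqcrc2 promoter (GRCr8, chr1:184598990-184599239, plus strand): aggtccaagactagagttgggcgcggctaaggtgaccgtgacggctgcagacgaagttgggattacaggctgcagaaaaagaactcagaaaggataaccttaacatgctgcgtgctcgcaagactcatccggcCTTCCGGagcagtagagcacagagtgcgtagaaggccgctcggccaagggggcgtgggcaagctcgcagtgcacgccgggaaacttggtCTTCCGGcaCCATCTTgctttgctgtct
Sdhb held both the NRF1 and the ETS core, Uqcrc1 the NRF1 core, Ndufs1 the ETS core, and Uqcrc2 the ETS core at 2 places and the YY1 core. A match is a description of these letters and not of binding.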

How the data were processed

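RNA of the dentate gyrus was sequenced from 44 rats. The authors trimmed the reads and aligned them to rn6 with STAR (version 2.5.3a in the submitters' processing notes) in Partek Flow, and deposited a table of 24694 rows with a normalized signal per gene row and rat, normalized with the median-ratio method. The values are not whole counts, so no count model was run. The total of the normalized signal is not a measure of depth, which is not given. Rows were summed per gene identifier (101 rows for the 91 members). No per-sample column was left unused.

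Genes with a mean of at least 5 over all rats were tested as log2(value + 1) with limma 3.58.1 (R 4.3.3, empirical Bayes with trend), in 1 fit of 4 groups, or 8 cells for the contrast between number series. Tests were two-sided with Benjamini-Hochberg adjustment over all genes tested. The scale understates differences of low-value genes, and values are not corrected for gene length. On simulated data, 200 of 15598 genes were lowered by 1 on the log2 scale in AV. Of these 200, 97% were found in AV against YNG, and 4.55% of the other genes were called. The median difference of the 91 members in that comparison was -0.28. How often changes smaller than 1 are found was not tested.

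The groups were taken from the deposited attribute table, and the number series from rat numbers. Named members were those with the smallest p in each complex or comparison, those called against the majority, the isoform pairs, and the members with the highest and lowest mean of each complex. Members and lists were chosen with earlier results of these data known. The contrast between number series was chosen because those results had shown a difference. Alternatives were another pseudocount (0.5 or 5), filter (none or 20), scaling, row choice, number series, 2-group fit and each rat left out. The covariate on the normalized total, the removal of rats above 17000000 and series b without V11 were added after seeing the data. Figures were drawn with matplotlib 3.10.9.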

Additional observations from a re-analysis of the deposited data

Results flagged for a closer look

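The difference of AV from YNG was unlike in the number series for the 3 members with the smallest p of that test, on the log2 scale and as series a minus series b: -1.26 for Ndufs7, -1.17 for Ndufv1 and -2.08 for Ndufa3. The difference itself was tested in limma as an interaction, a test chosen after these data had shown it. All 3 passed after adjustment over all genes tested. The series also differ in the number ranges of their AV rats, in the number of YNG rats (6 and 4) and in the share on AABR07000398.1, and the part of these in the difference was not tested. No named gene had a YNG value apart from the other 9 by Dixon's test.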

How the results depend on the processing

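Pseudocount, filter on low values, row choice, upper quartile scaling and number series as a covariate left the counts of lower members within 1.5 times the reported 44 (AV), 53 (AA) and 54 (ADQ). Scaling to equal totals gave 23, 27 and 30, with the median of all genes at 0.10, 0.15 and 0.15 and the median of the members at -0.18, -0.17 and -0.19. Series a alone gave 71 for AV, series b alone 0, 0 and 0, and fitting only the 2 groups 24 for AV. Of the alternatives added after seeing the data, the normalized total as a covariate gave 1, 0 and 0, leaving out totals above 17000000 13, 1 and 0, and series b without rat V11 0, 19 and 27. Leaving out each rat in turn gave 27 (without V2) to 64 (without V11) for AV, 45 to 62 for AA and 45 to 67 for ADQ, and 46 to 73 for the contrast between number series (66). AV also fell to 29 without V1 or 4011. Counts given without a share of all genes, here or above, cannot be set against one. For AA against AV, the count of 0 became 1 under equal totals, in series b, with the total as a covariate and without high totals, and 0 to 2 with a rat left out (2 without AV rat 4571). For ADQ against AV it became 1 in series a, 8 in series b, 1 with the total as a covariate, 5 without high totals, and 0 to 2 with a rat left out (2 without AV rat 4011). For AA against ADQ it became 1 in series a, 2 in series b, 1 with only the 2 groups, and 0 to 1 with a rat left out. Within series b the AV difference changed sign for Ndufv1 (0.12), Ndufaf3 (0.15), Uqcrb (ENSRNOG00000032204) (0.054), Uqcrc1 (0.050), Cox6c (0.075), Atp5mg (0.12), Ndufa4l2 (-0.15), Cox4i1 (0.11), Cox6b1 (ENSRNOG00000034161) (0.11), Ndufs6 (0.17) and Atp5f1b (0.15). Without V11 it did so there for Ndufv1 (0.0030), Ndufaf3 (0.054), Cox4i2 (-0.043) and Ndufa4l2 (-0.29). The cause was not tested. No paired analysis was possible because the rat numbers of the groups are not shared. Ndufs6, Cox4i2, Cox6b2 and Ndufa4l2 had values under 50 in at least part of the rats, and such low values limit their estimates.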
